A study of Homo sapiens with 3 samples.

Results

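A set of 10 secreted growth factors that signal through receptor tyrosine kinases of the VEGF, PDGF, KIT and FGF receptor families was followed in TK-10 cells, an established human renal cell carcinoma line. They were VEGFA, VEGFB, VEGFC, PGF, PDGFA, PDGFB, PDGFC, PDGFD, KITLG and FGF2. All probes on the arrays whose RefSeq accession belongs to one of these 10 genes were taken, which gave 13 of the 58201 probes and 10 of the 22439 genes that could be named. VEGFA, PDGFA and FGF2 had a pair of probes each and the other 7 genes had 1 probe. Each probe was printed in 1 spot and is given on its own.

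The data comprised 3 single-colour arrays, 1 per treatment, of cells harvested at 48 h. The vehicle cells received 0.1% DMSO, another culture received cordyceps at 750 ug/mL, and the last received 10 uM sunitinib, an inhibitor of several receptor tyrosine kinases. The paper names cordycepin, a nucleoside of Cordyceps fungi, where the labels name cordyceps, and the array is called by its label here. The paper also gives a lower concentration for its array than the label does, and it describes no sunitinib array. All cultures shared a DMEM medium with 10% fetal bovine serum, 10 mM nicotinamide, 10 uM troglitazone and 16.7 uM zinc sulfate, so no group was free of these additives. There was no replicate array, so no test between treatments could be made and the spread between cultures is unknown.

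VEGFA binds the receptors FLT1 and KDR, drives the growth of blood vessels, and is held high in many clear cell renal carcinomas by loss of VHL and activity of the hypoxia-inducible factors. VEGFB and PGF bind FLT1, VEGFC binds FLT4 and KDR, the PDGF chains form dimers that bind PDGFRA and PDGFRB, KITLG binds KIT, and FGF2 binds FGF receptors together with heparan sulfate. Sunitinib blocks the kinases of the VEGF, PDGF and KIT receptors, so most of these ligands act through receptors that it inhibits.

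Promoter sequence was matched for 7 of the 10 genes, as windows of 250 bases before to 50 after a transcription start in RefSeq (GRCh38.p14). Windows of VEGFA, PDGFB and PDGFC were not used here. The windows shown are those of VEGFB, PGF and KITLG, the ligands whose signal was more than 2-fold higher on the sunitinib array, and of FGF2, which was lower there by less than 2-fold. They are chr11:64234334-64234633 on the plus strand for VEGFB, chr14:74955548-74955847 on the minus strand for PGF, chr12:88580422-88580721 on the minus strand for KITLG and chr4:122826581-122826880 on the plus strand for FGF2. Capitals mark the GC box GGGCGG or its reverse complement CCGCCC and, in KITLG, the TATA box TATAAA.
VEGFB: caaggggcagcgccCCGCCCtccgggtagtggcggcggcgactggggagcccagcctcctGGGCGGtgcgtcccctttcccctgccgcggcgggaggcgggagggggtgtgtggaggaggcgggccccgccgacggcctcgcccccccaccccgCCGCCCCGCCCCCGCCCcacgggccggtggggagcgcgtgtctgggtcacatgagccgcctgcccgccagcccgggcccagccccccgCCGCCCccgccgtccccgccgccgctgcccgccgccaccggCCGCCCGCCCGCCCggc
PGF: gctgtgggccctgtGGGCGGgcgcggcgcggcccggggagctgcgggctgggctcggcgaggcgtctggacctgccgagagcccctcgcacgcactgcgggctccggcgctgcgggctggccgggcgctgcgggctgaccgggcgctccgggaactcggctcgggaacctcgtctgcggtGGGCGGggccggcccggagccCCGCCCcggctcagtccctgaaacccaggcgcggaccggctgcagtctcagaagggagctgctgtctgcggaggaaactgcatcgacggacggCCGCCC
KITLG: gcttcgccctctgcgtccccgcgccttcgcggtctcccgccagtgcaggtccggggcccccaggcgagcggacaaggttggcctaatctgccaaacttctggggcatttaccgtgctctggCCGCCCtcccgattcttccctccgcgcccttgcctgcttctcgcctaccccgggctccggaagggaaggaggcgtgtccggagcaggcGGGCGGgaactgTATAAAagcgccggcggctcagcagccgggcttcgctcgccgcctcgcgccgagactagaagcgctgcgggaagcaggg
FGF2: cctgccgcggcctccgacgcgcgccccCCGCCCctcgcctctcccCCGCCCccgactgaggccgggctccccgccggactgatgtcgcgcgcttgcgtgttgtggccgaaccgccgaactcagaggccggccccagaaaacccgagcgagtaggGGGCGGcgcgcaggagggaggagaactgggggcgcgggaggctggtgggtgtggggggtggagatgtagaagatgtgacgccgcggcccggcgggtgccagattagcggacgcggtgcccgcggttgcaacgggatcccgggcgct

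The GC box, counted on both strands with overlapping matches kept, occurred 9 times in the VEGFB window, 4 times in this PGF window, 2 times in KITLG and 3 times in FGF2. All 11 windows of the 7 genes held at least 1 GC box, against 45% of the 35116 RefSeq promoter windows of the same length. PDGFA and PGF had more than 1 window each, and those of PGF overlap, so the 11 are not independent. The 11 windows were also rich in G and C, at 67.3% to 84.7% against a median of 58.7% over all windows. TATAAA was found only in KITLG among the 7 genes, and 11.5% of all windows held it. The ACGTG form of the hypoxia-inducible factor core, the E-box CACGTG, which contains it, and the cAMP response element TGACGTCA had no match in the 11 windows. Of all windows, 21.4%, 7.26% and 1.85% held them. The GCGTG form of the core was not counted, and each printed window holds it or its reverse complement CACGC.

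The arrays differed in brightness as a whole. The 75th percentile of the processed signal, to which each array was scaled, was 165 on the vehicle array, 138 on the cordyceps array and 78.2 on the sunitinib array. The share of probes well above background, by the scanner software's own test against the local background, was 45.5%, 37.8% and 38.3%. Of 350 spike-in spots, 7, 3 and 3 were well above background, so no external standard fixed the scale between arrays. The 3 arrays shared 1 slide and 1 scan. On the cordyceps array, 581 spots lay in or around windows of 7 by 7 spots that were bright against both other arrays. This bright area held the dimmer PDGFA probe, whose own window had a median log2 excess of 0.16, below the limit of 1. Of the 9 kidney epithelial markers on the array, 8 were well above background in every treatment. Of 9 endothelial markers, CDH5 and VWF were well above background on every array. TIE1 was so on the vehicle and cordyceps arrays, and ROBO4 on the vehicle array only. PECAM1, TEK, CLDN5, ESAM and EMCN were not well above background on any array. The summed signal of the list was 357, 368 and 114 on the vehicle, cordyceps and sunitinib arrays.

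Both VEGFA probes were lower on the sunitinib array, by more than any other ligand. The probe A_23_P70398 gave a processed intensity of 3177 for vehicle, 3715 for cordyceps and 293 for sunitinib. The probe A_24_P12401 gave 557, 595 and 73.2. In both, the vehicle and cordyceps signals lay close together and the sunitinib signal lay far below them.

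Relative to the 75th percentile of each array, the log2 ratio of sunitinib over vehicle was -2.37 for A_23_P70398, with a combined error of 0.21 from the 2 spots' own error estimates. This is a 5.15-fold lower level after scaling and a 10.8-fold lower signal before it. The log2 ratio of A_24_P12401 was -1.85 with a combined error of 0.23, which is 3.61-fold lower after scaling and 7.60-fold before it. The spot errors cover the measurement of 1 hybridisation and hold no spread between cultures, and less RNA per cell cannot be told apart from fewer cells that make it. Both probes differed from each other by 0.51 in log2 ratio, inside the 95% limit of 0.60 set by their errors. Of 21623 probes measured well above background on both arrays, 89 (0.412%) had a lower ratio than A_23_P70398 and 207 (0.957%) a lower ratio than A_24_P12401.

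On the cordyceps array VEGFA was close to vehicle. The log2 ratios were 0.48 for A_23_P70398, past its 95% limit of 0.40, and 0.35 for A_24_P12401, within its limit of 0.40. Neither reached 2-fold.

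VEGFB, which acts in the supply of fatty acids to tissues and in the survival of vessels, gave 5482 on the vehicle array, 5780 on the cordyceps array and 5834 on the sunitinib array. The 3 unscaled signals were within 1.06-fold of vehicle after sunitinib and 1.05-fold after cordyceps. After scaling, sunitinib over vehicle was 1.16 on the log2 scale (error 0.20), or 2.24-fold higher, and cordyceps over vehicle was 0.33, within its error limit.

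PGF, a placental member of the family that binds FLT1, gave 662, 828 and 718 in the same order. The sunitinib ratio was 1.19 (error 0.20), or 2.28-fold higher after scaling, against 1.08-fold in the unscaled signals. The cordyceps ratio of 0.58 was past its error limit of 0.40 and corresponded to 1.49-fold.

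VEGFC, the ligand of lymphatic vessel growth, gave 1639, 1294 and 935. Its log2 ratios of -0.09 for cordyceps and 0.26 for sunitinib were both within their error limits of 0.40. On the sunitinib array VEGFA thus stood apart from the other 3 VEGF-family ligands of the set. VEGFB, PGF and VEGFC had ratios of 0.26 to 1.19 there, or 0.09, 0.12 and -0.81 without scaling. The VEGFA probes were at -3.44 and -2.93 without scaling.

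**Figure D1:**
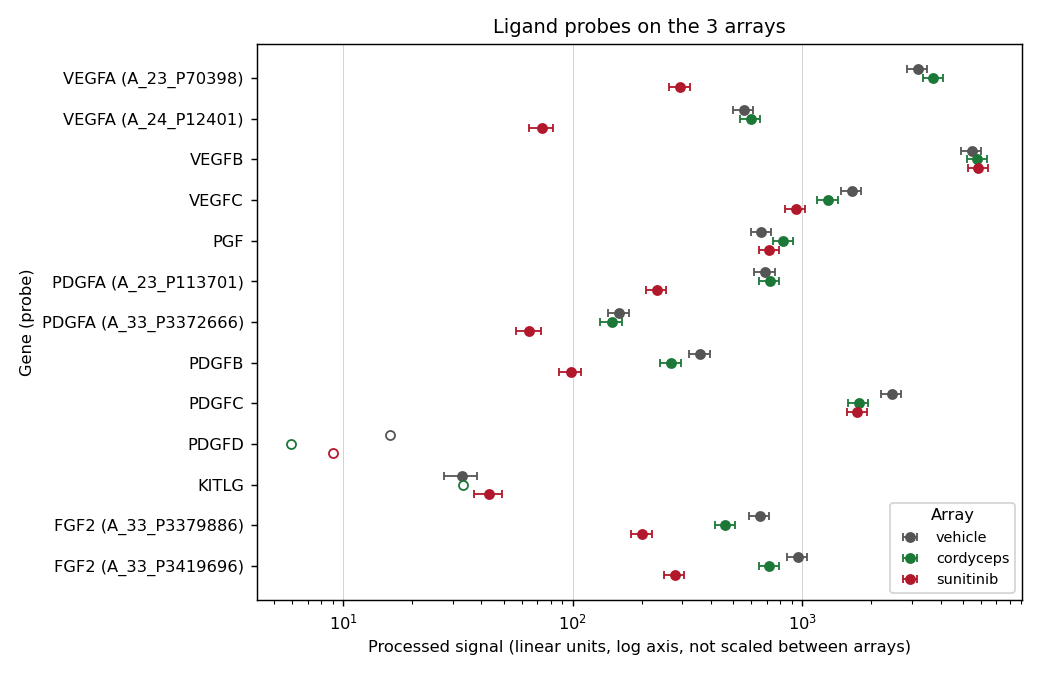
Processed signal of each ligand probe on the vehicle, cordyceps and sunitinib arrays, on a log axis in intensity units. Filled points were well above background and carry the scanner software's error for the spot, and open points were not and are drawn without one. Each VEGFA probe has its sunitinib point far below its vehicle point, at 293 against 3177 and at 73.2 against 557, whereas the 3 VEGFB points, at 5482, 5780 and 5834, lie together.

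The PDGF chains differed from each other on the sunitinib array, with PDGFA and PDGFB lower and PDGFC higher, none by 2-fold. PDGFA, whose homodimer binds PDGFRA, was measured by A_23_P113701 at 688 on the vehicle array, 720 on the cordyceps array and 232 on the sunitinib array. The dimmer PDGFA probe A_33_P3372666 gave 158, 148 and 64.6, and its spot on the cordyceps array lay in the bright area. The sunitinib ratios were -0.49, past its limit of 0.41, for the brighter probe and -0.22, within its limit of 0.46, for the dimmer one. The cordyceps ratios of 0.32 and 0.15 were within their limits.

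PDGFB, which recruits pericytes to vessels through PDGFRB, gave 358 on the vehicle array, 268 on the cordyceps array and 98.3 on the sunitinib array. Its sunitinib ratio was -0.79 (error 0.22), or 1.73-fold lower and past its limit of 0.42, and its cordyceps ratio of -0.17 was within its limit. PDGFC, secreted in a latent form that proteases activate, gave 2447, 1763 and 1731. Its sunitinib ratio of 0.57 was past its limit of 0.40, although its unscaled signal was lower than on the vehicle array, and its cordyceps ratio was -0.22. PDGFD, a latent ligand of PDGFRB, gave 15.9, 5.94 and 9.03, stayed near background on all 3 arrays, and has no ratio.

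KITLG, the stem cell factor, was the dimmest ligand that was measured. Its signal was 33.0 on the vehicle array, 33.3 on the cordyceps array, where it was not well above background, and 43.1 on the sunitinib array. The sunitinib ratio was 1.46 with an error of 0.31, or 2.75-fold higher after scaling and 1.31-fold in the unscaled signals. No ratio is given for cordyceps, since the lowest signal well above background on that array was 30.2, close to the signal of the probe itself.

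FGF2, a ligand without a classical secretion signal that acts on many cell types, gave concordant values on both of its probes. A_33_P3419696 gave 953 on the vehicle array, 719 on the cordyceps array and 278 on the sunitinib array. A_33_P3379886 gave 651, 462 and 199.9. The sunitinib ratios were -0.70 and -0.63, each past its limit of 0.40 and 0.41, and the cordyceps ratios of -0.15 and -0.24 were within their limits. The sunitinib ratios of the pair differed by 0.07.

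**Figure D2:**
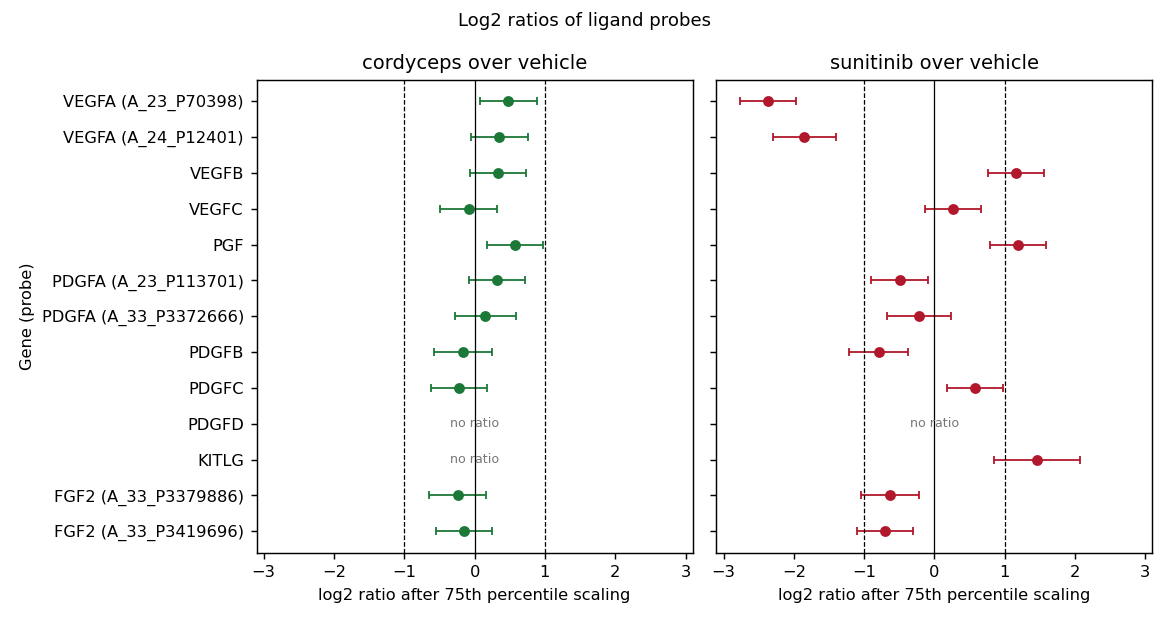
Log2 ratio of each ligand probe over vehicle after 75th percentile scaling, for the cordyceps and the sunitinib array, with bars for the 95% limit of the combined spot error and dashed lines at 2-fold. All 11 measured cordyceps values lie inside the dashed lines, and on the sunitinib side both VEGFA probes lie below them and VEGFB, PGF and KITLG above.

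For cordyceps, 0 of the 12 compared probes were more than 2-fold higher and 0 were more than 2-fold lower, where 3.6% and 2.49% of the 26872 compared probes of the array were. Of the 11 probes measured on both arrays, 2 (18.2%) were higher past the error limit and 0 were lower, beside 14.5% and 13.2% of all measured probes. The median ratio was 0.15 over the 11 probes and 0.00 over all 21600 measured probes. These shares lie near those of the whole array and give no result particular to the ligands. The split past the error limit depended on the scale. Without scaling, VEGFA A_23_P70398 at 0.23 and PGF at 0.32 were within their limits. PDGFB at -0.42, PDGFC at -0.47 and the FGF2 probes at -0.50 and -0.41 were then past theirs. With the median scaling, VEGFA at 0.70 and 0.57, VEGFB at 0.55, PGF at 0.80 and PDGFA A_23_P113701 at 0.54 were past theirs.

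For sunitinib, 3 of 12 probes (25%) were more than 2-fold higher and 2 of 12 (16.7%) more than 2-fold lower, where 8.08% and 5.67% of 27147 compared probes were. The 2 lower probes both belong to VEGFA and count as 1 gene. Past the error limit, 4 probes were higher and 6 lower, which is 33.3% and 50% of the 12 measured, beside 25.8% and 20% of all measured probes. The median ratio was -0.36 over the 12 probes and 0.05 over the 21623 measured probes.

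**Figure D3:**
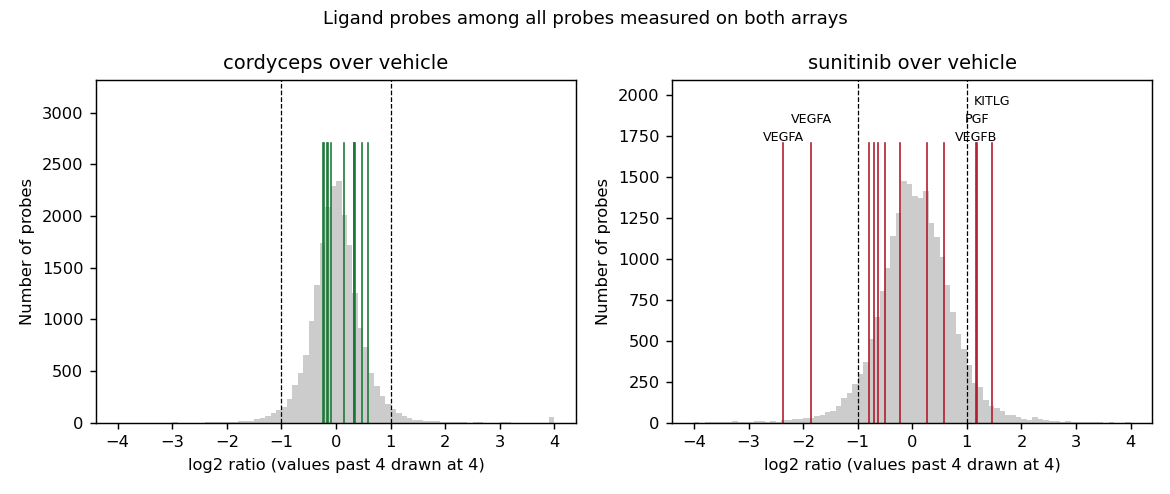
Histograms of the log2 ratio over vehicle of all probes well above background on both arrays, with vertical lines at the ligand probes and dashed lines at 2-fold. The cordyceps lines run from -0.24 to 0.58, in the bulk of the histogram, and the sunitinib lines run from -2.37 to 1.46, with both VEGFA probes in its lower tail.

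Which other ligands passed 2-fold after sunitinib depended on the scale between arrays and on the background correction, and VEGFA passed it under each of them that was tried. With the normexp background correction, 0 probes were more than 2-fold higher, with KITLG at 0.87, VEGFB at 0.80 and PGF at 0.72. Without any scaling, 0 probes were more than 2-fold higher and 7 were more than 2-fold lower, those of VEGFA, PDGFA, PDGFB and FGF2. With each array scaled to its median, KITLG alone remained more than 2-fold higher, and PDGFB at -1.12 and 1 FGF2 probe at -1.03 joined VEGFA on the lower side. Leaving out the scaling and using the median moved the median of all measured probes by -1.07 and -0.33, and the share of higher calls among all probes past 2-fold was 58.7% with the 75th percentile, 28.3% with the median and 3.07% without scaling. VEGFC ranged from -0.81 to 0.28 and PDGFC from -0.50 to 0.59 over all alternatives, so their direction was not fixed, whereas the VEGFA probes ranged from -3.44 to -2.36 and from -2.93 to -1.42. VEGFB ranged from 0.09 to 1.17, PGF from 0.12 to 1.23 and KITLG from 0.39 to 1.46.

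**Figure D4:**
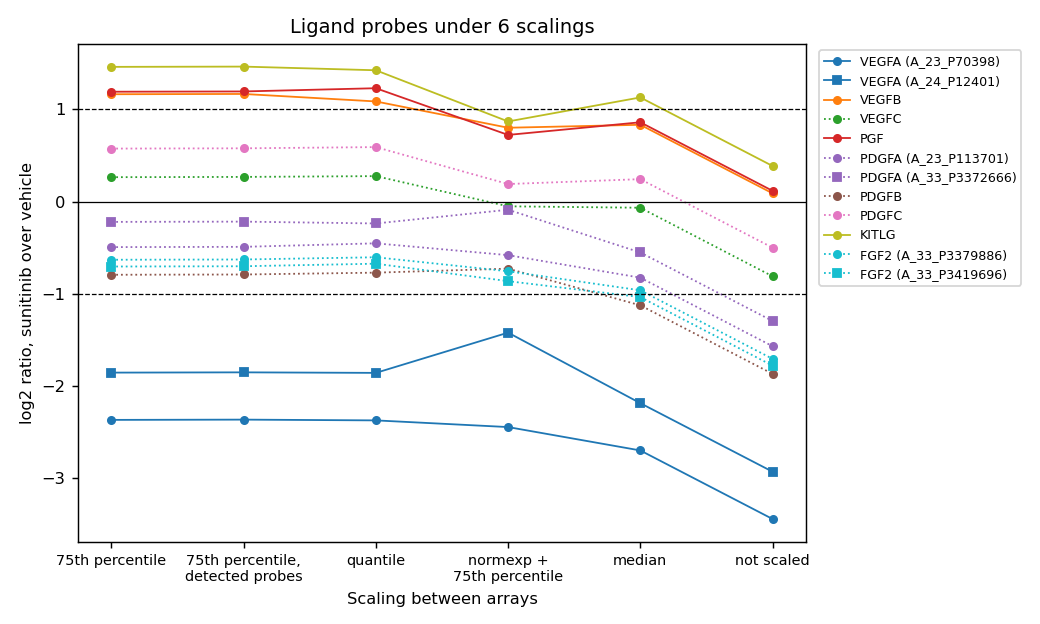
Log2 ratio of sunitinib over vehicle for each ligand probe under each way of scaling or correcting the arrays, with dashed lines at 2-fold. Squares are the further probe of a gene with a pair. The 2 VEGFA probes lie below -1 in every setting, and VEGFB and PGF lie inside the dashed lines with normexp, with the median and without scaling, the last at 0.09 and 0.12.

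Of the 10 receptor genes of these ligands, 4 had a probe well above background on each array. Of all probes, 45.5%, 37.8% and 38.3% were well above background on the vehicle, cordyceps and sunitinib arrays. FLT1, KDR and FLT4, which receive the VEGF ligands, PDGFRA, and KIT were not well above background on any array, and 1 KIT probe lay in the bright area of the cordyceps array. PDGFRB gave 706 on the vehicle array, 520 on the cordyceps array and 532 on the sunitinib array, with log2 ratios of -0.19 and 0.66, the latter -0.41 without scaling. FGFR1 gave 482, 735 and 199.8, with ratios of 0.87 and -0.20. Its cordyceps spot lay in the bright area, but the other FGFR1 probe, outside it, gave 0.94. FGFR3 gave 127, 57.3 and 78.8, with ratios of -0.90 and 0.38, the latter -0.69 without scaling, and FGFR4 gave 42.0, 43.0 and 15.4, the last not well above background. PDGFRB and FGFR3 were each read on the brighter of 2 probes, and the other is not given here. FGFR2 was well above background only on the sunitinib array, at 31.3 against 14.7 on the vehicle array, and at least 3.62-fold higher after scaling, with the log2 bound at 0.78 without scaling and 0.89 after the normexp correction, while its other probe was not detected on any array.

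Around the ligands, changes were counted per gene with its brightest probe, against 2.93% of 14773 named genes more than 2-fold higher and 2.74% lower for cordyceps, and 6.41% higher and 6.49% lower of 14898 for sunitinib. Among the coreceptors and heparan sulfate proteoglycans that present VEGF and FGF ligands, 0 of 11 compared genes passed 2-fold for cordyceps, and 1 was higher and 2 lower for sunitinib. NRP1, the neuropilin that binds VEGFA with KDR, gave 1320 on the vehicle array, 1285 on the cordyceps array and 197 on the sunitinib array, a sunitinib ratio of -1.67. Its other probe gave -2.02. For cordyceps the NRP1 probes disagreed, at 0.22 and 1.21. The syndecan SDC4 had a sunitinib ratio of -1.15 and the glypican GPC3 one of 1.57, the latter 0.49 without scaling. GPC3 was read on the brighter of its 2 probes, and the other is not given here.

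Of the proteases that release or activate these ligands, 10 of 13 were compared. ADAMTS3, which processes VEGFC, was the only one past 2-fold for cordyceps, at 274 on the vehicle array against 98.6 and a ratio of -1.22, which was -0.77 after the normexp correction. For sunitinib, PLAU and PLAT, the plasminogen activators, had ratios of -1.23 and -1.18, and the other PLAU probe gave -1.96. FURIN, which cleaves precursors of VEGFC and PDGF chains, had a ratio of 1.06 but -0.01 without scaling. The median of the list was -0.35 for cordyceps and -0.64 for sunitinib, against 0.01 and 0.00 over all named genes.

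Among secreted binders and inhibitors, DCN and THBS2 were far lower on the sunitinib array. For cordyceps, 1 of 11 compared genes was more than 2-fold higher and 2 were lower, and for sunitinib 1 was higher and 5 were lower. DCN, a proteoglycan that binds growth factors, was read on the brighter of its 2 probes, and the other is not given here. It gave 707 on the vehicle array, 169 on the cordyceps array and 31.2 on the sunitinib array, with ratios of -1.81 and -3.43. THBS2, a thrombospondin that inhibits vessel growth, had a sunitinib ratio of -3.23 on its brighter probe and -2.59 on the other, and -0.30 for cordyceps. The semaphorin SEMA3A, which competes with VEGFA for NRP1, had ratios of -1.31 and -1.63, whereas SEMA3F had 1.37 and 1.46, the latter 0.39 without scaling. SEMA3C was at -1.08 and FGFBP1, which carries FGF2, at least 4.39-fold lower for sunitinib. After the normexp correction SEMA3A was at -0.91 and -0.94, SEMA3F at 0.77 and 0.83, and the FGFBP1 bound at -0.86, all within 2-fold.

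DCN is also a fibroblast marker. Of 8 fibroblast and pericyte markers, 6 were compared. For cordyceps 0 were more than 2-fold higher and 3 lower, COL1A1 at -2.06, LUM at -1.85 and DCN. For sunitinib 3 were lower, COL1A1 at -2.71, DCN and LUM by at least 9.92-fold, and 1 was higher, ACTA2 at 1.32, which was at 0.25 without scaling. PDGFRB and RGS5 had sunitinib ratios of 0.66 and 0.53, and the median of the 5 markers measured on both arrays was 0.53. Their summed signal was 7841 on the vehicle array, 2400 on the cordyceps array and 1797 on the sunitinib array, of which COL1A1 gave 5308, 1069 and 385. COL1A2 and COL3A1 were not well above background on any array. The part of these markers in the values of the binders was not tested.

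Hypoxia-response genes, many of them targets of the hypoxia-inducible factors like VEGFA, did not share one direction. For cordyceps, 2 of 18 compared genes were more than 2-fold higher, NDRG1 at 1.12 and ANGPTL4 at 1.19, and 1 was lower, CA12, by at least 2.29-fold. For sunitinib the same pair was higher, at 1.69 and 1.66, and 4 were lower, namely HK2 at -2.52, PDK1 at -1.16, LOX at -1.11 and CA12 by at least 2.14-fold. HK2, the hexokinase of the entry step of glycolysis, was read on the brighter of its 2 probes, and the other is not given here. It gave 466, 681 and 38.6 on the vehicle, cordyceps and sunitinib arrays. Without scaling NDRG1 and ANGPTL4 were within 2-fold, at 0.87 and 0.94 for cordyceps and 0.62 and 0.59 for sunitinib. After the normexp background correction CA12 was within 2-fold in both comparisons, at -0.54 and -0.17, and PDK1 was at -0.94 for sunitinib. The list median was 0.20 for cordyceps and -0.23 for sunitinib.

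The ATF4 pathway also induces VEGFA when amino acids are short. Of 12 genes of this pathway, 5 were more than 2-fold lower for sunitinib and 0 more than 2-fold higher. Past the error limit, 6 were lower and 1 was higher. The highest ratio was 0.37, for CEBPB, and ATF4 itself was at 0.18. CHAC1 was at -1.91, the serine synthesis enzyme PSAT1 at -1.50, TRIB3 at -1.35, the asparagine synthetase ASNS at -1.26 and ATF3 at -1.10, and the list median was -0.55. CHAC1 has 2 probes and ATF3 has 4, and only the brightest of each is given here. For cordyceps CHAC1 was at -1.09, or -0.87 with the median scaling, the other 11 genes were within 2-fold, and the median was 0.19. Among 11 regulators of VEGFA transcription and mRNA stability, EPAS1, the hypoxia-inducible factor HIF2A, was the only one past 2-fold. It gave 6219, 9914 and 9212, with ratios of 0.93 for cordyceps and 1.64 for sunitinib, the latter 0.57 without scaling. For sunitinib, HIF1A was at 0.00 and VHL at -0.74. The part of these regulators, the ATF4 pathway and the hypoxia-response genes in the VEGFA values was not tested.

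**Figure D5:**
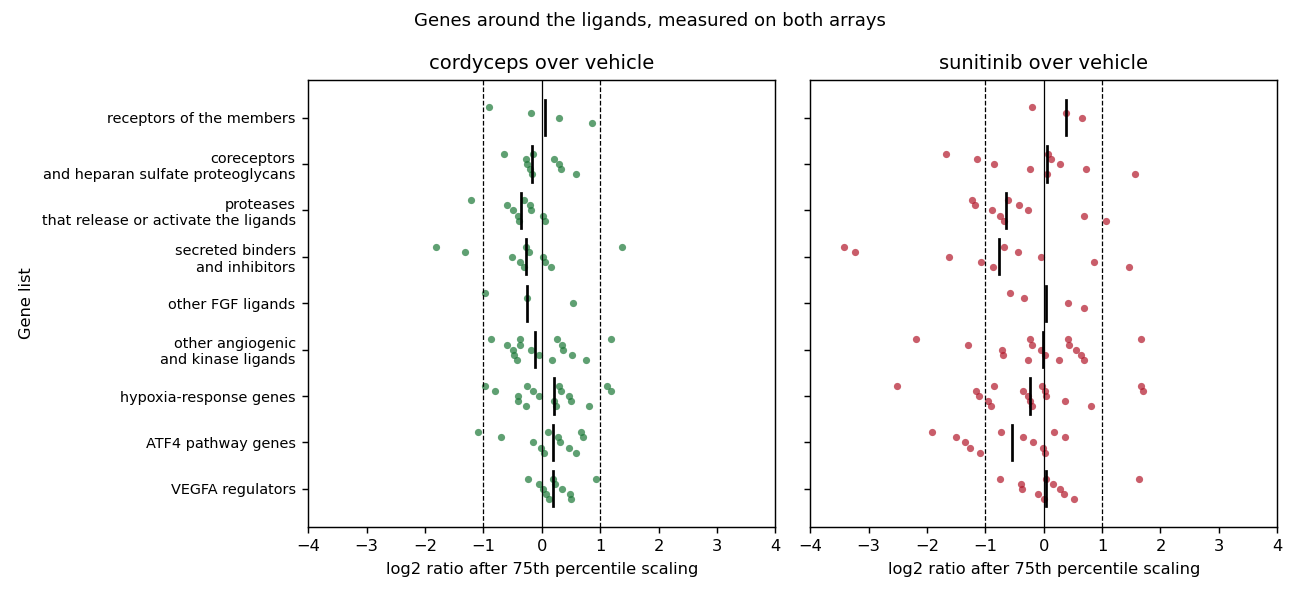
Log2 ratio over vehicle of the genes around the ligands, 1 point per gene well above background on both arrays, with a black bar at each list's median and dashed lines at 2-fold. Ratios known only as bounds are not drawn. The binder list reaches -3.43 at DCN on the sunitinib side, and the ATF4 list has its median at -0.55 there and at 0.19 on the cordyceps side.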

How the data were processed

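Total RNA of 3 TK-10 cultures was labelled with Cy3 and hybridised to single-colour Agilent arrays of 62976 spots. The authors deposited files of the Feature Extraction software, version 11.5.1.1, whose processed signal is an intensity on a linear scale after background subtraction, and whose header names build hg19. They also deposited a table of intensity values that equalled the processed signal within 0.01% for 99.87% to 99.92% of probes on each array, is not on a log scale and is not scaled between arrays. Its column medians were 14.4, 10.3 and 8.58. The methods describe a 2-colour array, and only their 2-fold limit was used.

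Control spots and outlier spots were left out, and log2 of the intensity was expressed relative to the 75th percentile of all probes on that array. Probes were named by RefSeq accession through a GRCh38.p14 table, used for names only, which named 31104 probes. A change was counted past 2-fold where 1 or both of the compared arrays showed the probe well above background, and a dim side was raised to the lowest signal well above background on that array, giving a bound. The error limit is 1.96 times the combined Feature Extraction error. A bright area was searched for with a median over 7 by 7 spots. Every ligand probe is named. Of the gene lists, up to 3 genes past 2-fold in each direction were named, plus the receptors, with a few further genes chosen after their values were seen. A listed gene with more than 1 probe was read on its brightest, and its other probes are given only where stated. The ligands and lists were chosen with earlier results of these data known. The 11 alternatives changed the scaling, background correction, filters, outlier spots, bright area and treatment of paired probes. Python 3.11.15, numpy 2.4.6, pandas 2.3.3, R 4.3.3 and limma 3.58.1 (normexp, offset 50) were used, and the counting was tested on simulated data. The precision is limited by the 1 array per group.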

Additional observations from a re-analysis of the deposited data

How the results depend on the processing

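No paired analysis was possible because each treatment had 1 array, and for the same reason no replicate could be left out. Of the 12 ligand probes compared for sunitinib, 3 were more than 2-fold higher with the 75th percentile scaling. This count was 1 with each array scaled to its median, 0 without scaling and 0 after the normexp correction. The count of 2 lower probes became 4 with the median and 7 without scaling. For cordyceps the count of lower probes went from 0 to 1 when dim probes were kept without a floor (PDGFD at -1.17) or judged by the software's weaker detection flag (PDGFD at -1.15), although PDGFD stayed near background on all 3 arrays. Leaving out the bright area removed the dimmer PDGFA probe from the cordyceps comparison and left both counts at 0. The VEGFA probes were more than 2-fold lower for sunitinib under every alternative that was run. Spot errors were too wide for a ratio of PDGFD, and KITLG lay near the lowest signal well above background.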

Other observations

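Other ligands of receptor tyrosine kinases were listed beside the VEGF, PDGF, KIT and FGF2 ligands. Of 21 further FGF genes, 20 had a probe and 6 were compared, and 0 of the 6 passed 2-fold in either comparison. FGF1 was at 0.69 on the log2 scale for sunitinib and FGF18 at -0.98 for cordyceps.

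Among 24 other angiogenic and kinase ligands, 16 were compared for cordyceps, with 1 more than 2-fold higher and 0 lower. For sunitinib 17 were compared, with 2 higher and 2 lower. Of all compared named genes, 2.93% were higher and 2.74% lower for cordyceps, and 6.41% and 6.49% for sunitinib. ANGPTL4, a secreted inhibitor of lipoprotein lipase, gave 678 on the vehicle array, 1298 on the cordyceps array and 1017 on the sunitinib array, with ratios of 1.19 and 1.66, or 0.94 and 0.59 without scaling. GDNF, the ligand of the RET coreceptor GFRA1, gave 603, 375 and 62.5 on the brightest of its 4 probes, with ratios of -0.43 and -2.20. Another GDNF probe gave -2.15 for sunitinib, and the remaining probes are not given here. The heparin-binding PTN had a sunitinib ratio of -1.29. IGF1 was well above background only on the sunitinib array, at 93.2 against 3.99 on the vehicle array, and at least 10.8-fold higher after scaling, a log2 bound of 3.43 that was 2.36 without scaling, but its other probe stayed near background on all 3 arrays.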
